A study of Homo sapiens with 12 samples.

Results

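ETV1, ETV4 and ETV5 form the PEA3 subfamily of the ETS transcription factors, and their 3 transcripts, out of 20345 rows in the deposited expression table, are described here across 12 RNA-seq libraries. The members are a gene family defined by its sequence relationship, and it was chosen because ETV1 and ETV5 stood among the few transcripts that differed with treatment in the TEAD4KO libraries. HGC-27 is a human gastric cancer cell line, and the libraries fall into 4 groups of 3: cells without a knockout (WT) and cells labelled TEAD4KO, each left untreated or given GLUP. GLUP is a macrocyclic peptide made by the study to bring TEAD4 molecules together. TEAD4 belongs to the TEAD family of transcription factors, through which the Hippo coactivator YAP reaches DNA. The labels call the control treatment none, while the study's methods describe a buffer control, and the dose and duration of GLUP are not in the labels. The sources used here do not say how the TEAD4KO cells were made or whether they were 1 clone. The comparison between GLUP and untreated cells asks what the peptide does to transcription, and the TEAD4KO cells ask how much of it needs TEAD4.

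PEA3 factors bind DNA through an ETS domain that reads the GGAA core. They act as end points of receptor tyrosine kinase signalling: ligand-bound receptors such as the FGF receptors activate RAS and then the kinases RAF, MEK and ERK, and ERK activity relieves repression of the PEA3 genes by CIC, a repressor that binds an octamer related to TGAATGAA. The proteins themselves are short-lived because the ubiquitin ligase adaptors COP1 and DET1 direct them to degradation, and the transcripts belong to the set that is commonly read as ERK output, together with the feedback inhibitors of the SPRY, SPRED and DUSP families. In the stomach, ETV1 is best known as a lineage factor of interstitial cells of Cajal and of gastrointestinal stromal tumours.

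In GRCh37 coordinates with GENCODE release 44 annotation, ETV1 (ENSG00000006468) spans chr7:13930854-14031050, ETV4 (ENSG00000175832) spans chr17:41605212-41656988 and ETV5 (ENSG00000244405) spans chr3:185764103-185828107. All 3 are protein-coding genes on the minus strand. Exon overlap with other genes was not computed for ETV1. ETV4 shares 68 of 3515 exon bases with DHX8 on the opposite strand, and ETV5 shares 164 of 5773 exon bases with DGKG on the same strand. The annotation also places the antisense gene ETV5-AS1 within ETV5, with 0 exon bases in common. Whether reads were assigned by strand is not given in the sources used here.

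Promoter sequence was at hand for 1 of the 3 members. RefSeq (GRCh38.p14, a different build from that of the expression table) lists 6 start windows for ETV1, and the 250 bases before the most upstream of these starts, chr7:13991426-13991675 on the minus strand, are shown because this stretch holds the letters of the CIC octamer. Capitals mark the octamer.

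ETV1: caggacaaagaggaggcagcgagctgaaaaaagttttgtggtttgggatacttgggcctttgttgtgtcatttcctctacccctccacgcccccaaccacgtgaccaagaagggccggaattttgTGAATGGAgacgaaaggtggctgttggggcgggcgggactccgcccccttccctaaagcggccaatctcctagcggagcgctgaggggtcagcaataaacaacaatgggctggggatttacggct

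The octamer TGAATGGA begins at position -125, counted from the start. The search covered TGAATGAA, TGAATGGA, TCAATGAA and TCAATGGA on both strands, and 1 of the 6 ETV1 windows held a match, against 3.18% of the 35116 windows of this length in the table. The ETS core GGAA occurred 3 times in the printed stretch, counting both strands, but it also occurred in 92.7% of all windows. Neither the TEAD sequence GGAATG, present in 11.9% of all windows, nor the AP-1 sequence TGANTCA, present in 6.57%, was found in any of the 6 ETV1 windows. These are matches of letters and say nothing of binding in HGC-27 cells.

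Some facts of the libraries bear on what follows. Values are FPKM, a measure scaled to transcript length and to the fragments of each library, which puts genes of different length on 1 scale but carries no read depth, so the precision of low values is unknown. FPKM totals ran from 375361 to 423757. The TEAD4 transcript was not lower in the libraries labelled TEAD4KO (26.0 to 30.1 FPKM) than in WT (22.9 to 25.8 FPKM), and with GLUP it was higher by 0.23 ± 0.06 on the log2(FPKM + 1) scale (SE, limma adjusted p = 0.0479), so the transcript level does not check the label. That call held in 8 of 23 alternatives (adjusted p from 0.00561 to 0.467), and was lost with paired GLUP libraries (0.0516) and with the GC and length correction, where the difference was 0.08. More rows stood at 0 in the TEAD4KO libraries (23.7 to 25.5%, against 21.1 to 22.3% in WT). Defining markers of gastric mucous cells were absent or nearly so, with TFF1, TFF2, GKN1 and GKN2 at 0 in every library. Of 7 epithelial markers 3 averaged at least 1 FPKM, namely KRT8 (3.78 to 9.13), CDH1 (2.04 to 3.68) and CLDN7 (1.23 to 2.80). EPCAM stayed at or below 0.169 FPKM. Of 5 mesenchymal markers 4 averaged at least 1 FPKM. Among these VIM, an intermediate filament of mesenchymal cells, ran from 1238 to 1704 FPKM, while CDH2 stayed at or below 0.149 FPKM. In bulk RNA, fewer cells of a kind and less RNA per cell cannot be told apart. Nothing in the labels says that the 3 libraries of a group came from separate cultures, so each p-value measures only the spread between these libraries.

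ETV5 was the most abundant member and ETV4 the least in every library, as the plot of PEA3 levels shows. Over the 12 libraries ETV5 had a mean of 15 FPKM, above 61.6% of the 11225 tested rows (those with a mean of at least 1 FPKM). ETV1 had a mean of 8.26 FPKM, above 41.6% of tested rows, and ETV4 a mean of 2.90 FPKM, above 15.4%. Within single libraries ETV5 exceeded ETV1 by 1.45- to 2.36-fold, and ETV1 exceeded ETV4 by 1.99- to 3.93-fold. The ranges of the 3 members did not touch in any of the 4 groups.

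**Figure D1:**
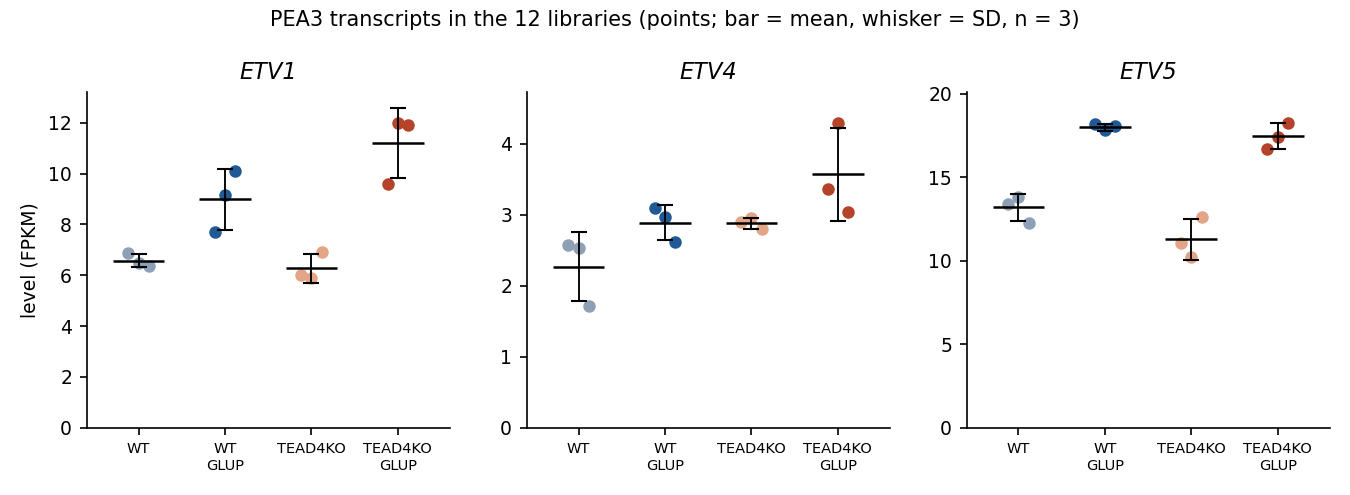
Levels of ETV1, ETV4 and ETV5 in FPKM (y axis, each panel from 0 and on its own scale) in the 4 groups of 3 libraries, with points for libraries, horizontal bars for means and whiskers for SD. For each member the 3 GLUP libraries lie above the 3 untreated libraries of the same genotype.

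The comparison of GLUP with untreated WT cells was tested for the members, since the choice of the family rested on the TEAD4KO libraries. The test is not fully independent of that choice, because all 12 libraries share 1 estimate of the spread of each gene and a choice by small p favours genes of small spread. A fit of the 6 WT libraries alone leaves out the spread of the TEAD4KO libraries. The WT spread was itself part of the shared estimate, so that fit is not fully independent of the choice either. Its adjusted p is given below. ETV5 read 13.4, 13.8 and 12.3 FPKM without GLUP and 18.2, 17.8 and 18.1 FPKM with it. The lowest GLUP library stood well clear of the highest untreated library, and the 3 GLUP libraries lay closer together than the untreated ones. The ratio of the means was 1.37, and the difference on the log2(FPKM + 1) scale was 0.43 ± 0.08 (SE, 95% interval 0.260 to 0.596, n = 3 per group). ETV5 ranked 4 of 11225 rows by p in this comparison, but its limma adjusted p was 0.238, so it did not pass 0.05.

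ETV1 read 6.87, 6.497 and 6.38 FPKM in untreated WT cells and 7.71, 9.16 and 10.1 FPKM with GLUP. Again no GLUP library reached down to the untreated range, though GLUP replicate 14 came close to it. The means stood at a ratio of 1.37, and the log2 difference was 0.39 ± 0.11 (SE, 95% interval 0.163 to 0.621, limma adjusted p = 0.666), which did not pass. ETV4 read 2.58, 2.53 and 1.72 FPKM without the peptide and 3.10, 2.97 and 2.62 FPKM with it. Its groups were separated by a gap smaller than the spread within either of them, and its log2 difference of 0.26 ± 0.13 (SE, 95% interval -0.0113 to 0.530, limma adjusted p = 0.999) did not pass either.

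Across the whole table, GLUP in WT gave few calls: 1 of 11225 rows passed limma at adjusted p under 0.05 (0.00891%), and 385 rows (3.43%) had an unadjusted p under 0.05. None of the 3 members passed, and 2 of 3, ETV1 and ETV5, had an unadjusted p under 0.05. In all 3 members every GLUP library lay above every untreated library, a layout found in 10.2% of tested rows. The intervals of ETV1 and ETV5 lay above 0 and that of ETV4 did not. With the 6 WT libraries alone the limma adjusted p was 0.0551 for ETV5, 0.198 for ETV1 and 0.443 for ETV4, so none passed there. ETV5 passed in a single alternative, limma with array weights, which down-weight libraries that deviate (adjusted p = 0.00448, with 61 rows called in place of 1), and its adjusted p ran from 0.00448 to 1 over 21 alternatives.

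In the libraries labelled TEAD4KO the members were chosen for their difference with GLUP, so their values there are a description and carry no test. ETV1 read 6.01, 5.88 and 6.93 FPKM in untreated cells and 9.60, 12.01 and 11.9 FPKM after GLUP, a ratio of means of 1.78. ETV5 read 11.1, 10.2 and 12.6 FPKM in untreated cells and 16.7, 17.4 and 18.3 FPKM after GLUP, a ratio of 1.55. The lowest GLUP library of each was higher than all of its untreated libraries by more than the untreated spread. ETV4 read 2.89, 2.96 and 2.81 FPKM in untreated cells and 3.37, 4.30 and 3.04 FPKM after GLUP, a ratio of 1.24. Here the separation was slight, and GLUP replicate 15 was well above the other GLUP libraries.

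On the log2(FPKM + 1) scale the differences with GLUP in these libraries were 0.74 ± 0.11 for ETV1, 0.59 ± 0.08 for ETV5 and 0.22 ± 0.13 for ETV4 (SE). Of all tested rows, 5 of 11225 (0.0445%) passed adjusted p under 0.05, and ETV1 and ETV5 were among those 5, which is how they were picked. GLUP libraries lay above all untreated ones in 2.85% of tested rows here. In both genotypes at once they did so in 0.998% (112 rows), which hold all 3 members. For ETV1 and ETV5 the TEAD4KO part of that layout follows largely from the choice, so nothing is read from it. ETV4 had the smallest difference of the 3 and was taken up as their family member. DHX8, an RNA helicase singled out for its exon overlap with ETV4 and after its values were seen, read 13.7 to 17.0 FPKM untreated and 18.0 to 19.8 FPKM with GLUP in the TEAD4KO libraries, a log2 difference of 0.23 next to 0.22 for ETV4. In WT the same helicase differed by -0.02 while ETV4 differed by 0.26. The part of shared reads in the ETV4 value was not tested.

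**Figure D2:**
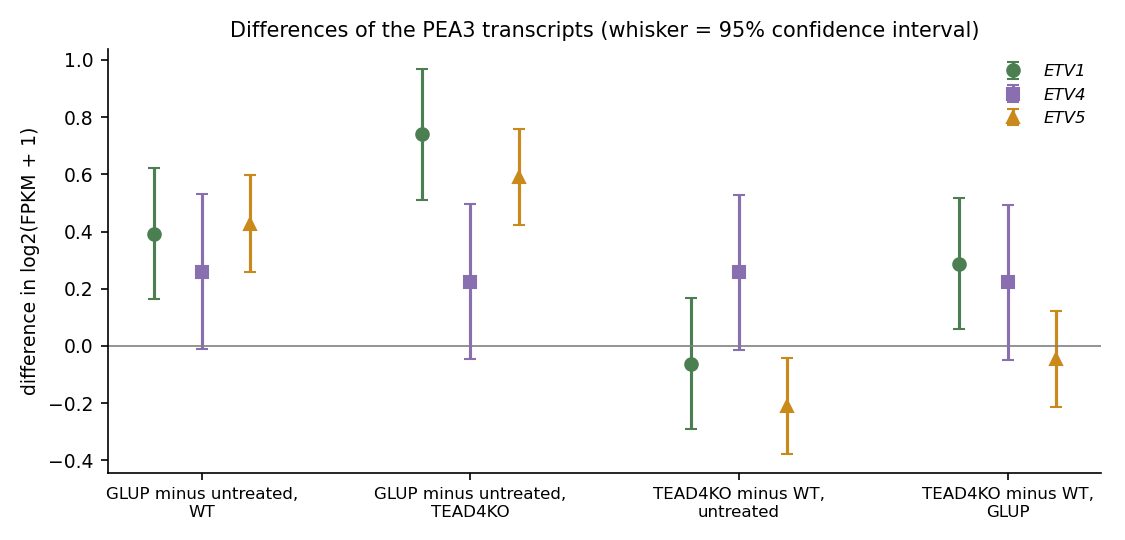
Differences in log2(FPKM + 1) of ETV1 (circles), ETV4 (squares) and ETV5 (triangles) for GLUP minus untreated in each genotype and for TEAD4KO minus WT in each treatment, with 95% confidence intervals from limma as whiskers. The 6 differences with GLUP are positive, from 0.22 to 0.74, while the 6 differences between genotypes fall on both sides of 0. Only the differences with GLUP in WT were tested. The other intervals are descriptions, as they use the TEAD4KO libraries from which ETV1 and ETV5 were picked.

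Between genotypes the 3 transcripts had no direction in common, and as these comparisons reuse the libraries that served for the choice they are given as descriptions. In untreated cells the difference of TEAD4KO from WT was -0.06 ± 0.11 for ETV1, -0.21 ± 0.08 for ETV5 and 0.26 ± 0.13 for ETV4 (log2 scale, SE). ETV1 and ETV5 overlapped between genotypes, with the third TEAD4KO library of each reaching into or above the WT range. ETV4 was the exception: its 3 TEAD4KO libraries lay above its 3 WT libraries, as did those of 18.3% of tested rows, while no member lay below WT throughout, as 7.47% of rows did. With GLUP the differences were 0.29 ± 0.11 for ETV1, 0.22 ± 0.13 for ETV4 and -0.04 ± 0.08 for ETV5, and all 3 members overlapped between genotypes, beside 16.7% of rows lying wholly above and 12.9% wholly below.

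The difference with GLUP was larger in the TEAD4KO libraries than in WT by 0.35 ± 0.15 for ETV1 and by 0.16 ± 0.11 for ETV5, and the same quantity was -0.04 ± 0.18 for ETV4 (log2 scale, SE). The ETV1 interval ran from 0.0248 to 0.673, that of ETV5 from -0.0738 to 0.401 and that of ETV4 from -0.418 to 0.348. None of these has a test, because the choice of ETV1 and ETV5 favoured a large difference in the TEAD4KO libraries. For the same reason the place of an interval relative to 0 is not read as a result here.

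The pathway around the PEA3 genes was followed with lists drawn from general knowledge, which were compiled with earlier results of these data known. At the top, 6 of 10 FGF receptors and adaptors passed the filter of 1 FPKM, and neither GLUP comparison called any of them. Their log2 differences with GLUP had a median of -0.10 in WT (from -0.36 to 0.03) and of -0.13 in TEAD4KO (from -0.34 to 0.06), against 0.01 and -0.02 over all tested rows. The TEAD4KO median depended on the filter, being -0.0119 without a filter and -0.227 with one of 5 FPKM. With array weights 1 of the 6 passed in WT. At an unadjusted p under 0.05 (3.43% of all rows in WT and 6.38% in TEAD4KO) limma gave 2 lower in WT and 3 lower in TEAD4KO, FGFR2 and FGFR3 in both and FGFR4 in the latter, receptors named here after their values were seen.

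Of the RAS-ERK cascade itself, from GRB2 and SOS1 through the RAS, RAF, MEK and ERK genes to RPS6KA3, all 19 genes were tested. GLUP called 0 of 19 in WT and in TEAD4KO, beside 0.00891% and 0.0445% of all tested rows. At an unadjusted p under 0.05 limma gave 0 of 19 in both, beside 3.43% and 6.38% of all rows. The median log2 difference was 0.03 in WT and 0.01 in TEAD4KO, close to that of all rows. Between genotypes limma called 0 of 19 cascade genes and 0 of the 6 receptors and adaptors, and at an unadjusted p under 0.05 the cascade had 2 higher and 3 lower in untreated TEAD4KO and 1 higher and 2 lower with GLUP, and the receptor list 1 higher and 1 lower in each. Over all rows 21.7% had such a p in untreated cells and 23.9% with GLUP, and nothing is read from these counts. With GLUP libraries of the same number treated as pairs, 1 cascade gene and 1 receptor or adaptor passed between genotypes with GLUP, and with array weights 3 and 2 did. RNA levels of these kinases do not measure their activity.

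Among the genes that restrain PEA3 factors no difference with GLUP passed the test. CIC, the repressor of the PEA3 genes, read 9.28, 8.59 and 8.75 FPKM in untreated WT cells and 8.51, 9.10 and 9.12 FPKM with GLUP, and its log2 difference was 0.01 ± 0.12 (SE, 95% interval -0.249 to 0.260). In TEAD4KO it read 10.4, 8.13 and 8.59 FPKM in untreated cells and 9.64, 6.57 and 8.93 FPKM after GLUP. The groups overlapped throughout. COP1, which brings PEA3 proteins to a ubiquitin ligase, had means of 11.6 FPKM untreated and 11.5 FPKM with GLUP in WT, and of 11.6 and 10.3 FPKM in TEAD4KO, again with overlapping libraries. With DET1, the CIC partners ATXN1 and ATXN1L and the ligase subunits, 9 of 9 genes of this list were tested. GLUP called 0 of 9 in WT and in TEAD4KO, beside 0.00891% and 0.0445% of all tested rows. At an unadjusted p under 0.05 limma gave 0 of 9 in both, beside 3.43% and 6.38% of all rows. With shares so low, nothing is read from these counts.

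Between genotypes 2 genes of that list passed. CUL4A, the scaffold of the ligase, was higher in TEAD4KO in untreated cells (means of 32.7 FPKM in WT and 41.5 FPKM in TEAD4KO, log2 difference 0.33 ± 0.07, limma adjusted p = 0.0212). COPS5, a subunit of the signalosome that regulates such ligases, was higher with GLUP (means of 45.5 and 56.5 FPKM, log2 difference 0.31 ± 0.08, limma adjusted p = 0.0496). The CUL4A call held in 19 of 23 alternatives (adjusted p from 0.00906 to 0.104) and was lost without WT untreated replicate 2 or 3 or TEAD4KO untreated replicate 2. The COPS5 call held in 8 of 23 (adjusted p from 0.00909 to 0.216) and was lost without any of the 6 WT libraries, without TEAD4KO untreated replicate 3 or without TEAD4KO GLUP replicate 14 or 15. Calls of this kind were common between genotypes. In untreated cells 552 rows were higher (4.92%) and 56 lower (0.499%) in TEAD4KO, and with GLUP 551 were higher (4.91%) and 105 lower (0.935%). The balance of directions depended on scaling, with 357 higher and 246 lower in untreated cells after quantile normalization and 510 higher and 299 lower with GLUP. After median-ratio scaling the splits were 320 to 133 and 438 to 162. The 656 calls with GLUP became 1064 when libraries of the same number were treated as pairs.

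The tested ERK output and feedback genes mostly had positive differences with GLUP, though no gene passed the test. Of 20 listed ERK output and feedback genes 13 were tested. With GLUP, 12 of 13 had a positive difference in WT and 12 of 13 in TEAD4KO, beside 53.9% and 43.1% of all tested rows. The medians were 0.21 (from -0.01 to 0.41) and 0.26 (from -0.01 to 0.53) on the log2 scale, against 0.01 and -0.02 over all tested rows. Limma called 0 of 13 in either genotype, and at an unadjusted p under 0.05 there were 5 higher in WT (3.43% of all rows in either direction), 6 higher in TEAD4KO (6.38% of all rows) and none lower in either. With array weights 2 of 13 passed in WT. In 9 of 13 the GLUP libraries lay above all untreated libraries in WT (10.2% of all rows), in 8 of 13 in TEAD4KO (2.85% of all rows), and in 7 of 13 in both (0.998% of all rows). Those 7 were SPRY1, SPRY2, SPRED2, PHLDA1, EGR1, FOSL1 and IER3.

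SPRY2, a Sprouty protein that blocks receptor signalling to RAS, read 3.31, 3.67 and 3.81 FPKM in untreated WT cells and 4.91, 5.12 and 4.97 FPKM with GLUP. In TEAD4KO it read 3.88, 3.75 and 4.36 FPKM in untreated cells and 4.74, 5.17 and 6.19 FPKM after GLUP. Every GLUP library was above every untreated library of either genotype. The log2 difference was 0.39 ± 0.10 in WT (SE, limma adjusted p = 0.512) and 0.34 ± 0.10 in TEAD4KO (limma adjusted p = 0.410). With array weights SPRY2 passed in WT (adjusted p = 0.0105), and its adjusted p there ran up to 1. PHLDA1, a pleckstrin-domain protein read as a marker of ERK activity, had log2 differences of 0.21 ± 0.12 in WT and 0.30 ± 0.12 in TEAD4KO, and its 3 TEAD4KO libraries with GLUP were nearly identical at 3.44, 3.44 and 3.43 FPKM.

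SPRY4, another Sprouty gene, was below the filter and has no test. It read 0.504, 0.678 and 0.663 FPKM in untreated WT cells and 1.25, 1.38 and 1.29 FPKM with GLUP, a ratio of means of 2.12. In TEAD4KO it read 0.586, 0.547 and 0.316 FPKM in untreated cells and 0.787, 1.05 and 1.72 FPKM after GLUP, a ratio of 2.45. The groups did not overlap in either genotype, and the ratios were above those of the 3 PEA3 transcripts, at levels where the reads behind each value are unknown.

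The ERK phosphatases DUSP6 and DUSP4 were low in this line. DUSP6 read 0.423, 0.346 and 0.483 FPKM in untreated WT cells and 0.624, 0.318 and 0.665 FPKM with GLUP, so its WT groups overlapped. In TEAD4KO it read 0.270, 0.274 and 0.194 FPKM in untreated cells and 0.401, 0.468 and 0.692 FPKM after GLUP, with no overlap. DUSP4 overlapped in both genotypes, with means from 0.175 to 0.268 FPKM. Both phosphatases were below the filter and were not tested.

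**Figure D3:**
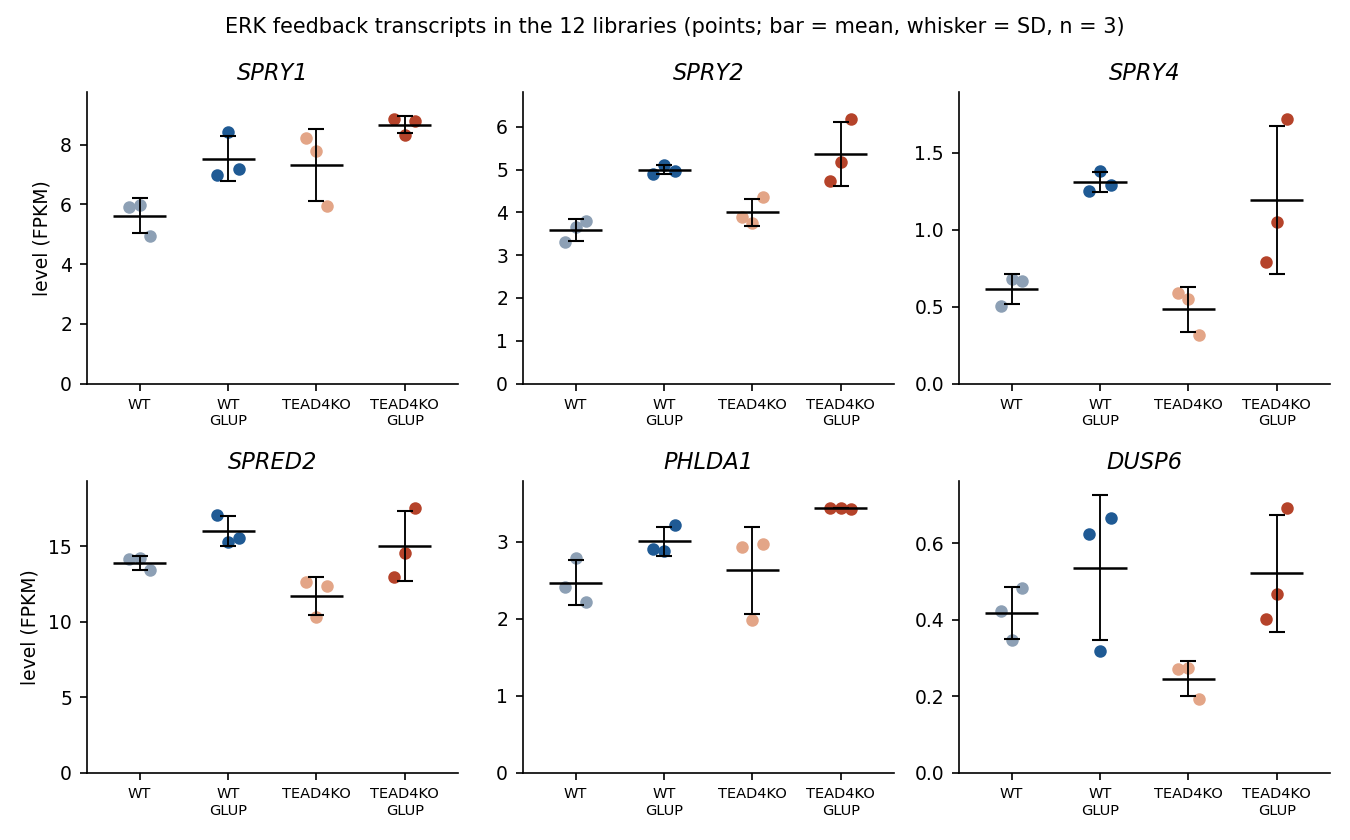
Levels of 6 ERK output and feedback transcripts in FPKM (y axis, each panel from 0 and on its own scale) in the 4 groups of 3 libraries, with points for libraries, bars for means and whiskers for SD. SPRY1, SPRY2, SPRY4, SPRED2 and PHLDA1 are higher in each GLUP library than in the untreated libraries of the same genotype, and DUSP6 overlaps in WT. SPRY1 and SPRED2 are not among the genes named by rule. SPRED1, SPRED3, DUSP4 and DUSP5 of the same list are not drawn, and their GLUP and untreated libraries overlapped in both genotypes.

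Between genotypes, IER3, an early response gene induced by ERK, was higher in TEAD4KO in untreated cells (log2 difference 0.33 ± 0.07, limma adjusted p = 0.0202) and with GLUP (0.34 ± 0.07, limma adjusted p = 0.0166). CCND1, the cyclin D1 gene, was lower in TEAD4KO with GLUP (means of 79.6 FPKM in WT and 63.9 FPKM in TEAD4KO, log2 difference -0.32 ± 0.09, limma adjusted p = 0.0487). No other gene of the list passed between genotypes. The IER3 calls held in 18 and 17 of 23 alternatives (adjusted p from 0.0128 to 0.164 and from 0.00506 to 0.222). The GC and length correction lost both, with the difference down to 0.21 untreated (adjusted p = 0.164) and 0.18 with GLUP (adjusted p = 0.222). Untreated, the call was also lost without WT untreated replicate 1 or 3, and with GLUP without any of the 3 WT GLUP libraries or TEAD4KO GLUP replicate 14. The CCND1 call held in 11 of 23 (adjusted p from 0.00192 to 0.181) and was lost without any of the 6 WT libraries, without TEAD4KO untreated replicate 3 or without TEAD4KO GLUP replicate 14 or 15.

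Other ETS factors had differences in both directions. Of 25 listed genes 13 were tested. With GLUP, 7 of 13 had a positive difference in WT and 10 of 13 in TEAD4KO, beside 53.9% and 43.1% of all tested rows. The list medians were 0.09 and 0.16 on the log2 scale. These medians depended on the filter, the WT value being -0.0193 with a filter of 5 FPKM and the TEAD4KO value 0.00798 without a filter. Limma called 0 of 13 in any of the 4 comparisons, though 5 passed between genotypes with GLUP under array weights and 1 in untreated cells under quantile normalization. At an unadjusted p under 0.05 there were 1 higher and 1 lower with GLUP in WT, 4 higher with GLUP in TEAD4KO, 1 higher and 3 lower in untreated TEAD4KO against WT, and 3 higher and 1 lower in TEAD4KO against WT with GLUP. The shares of all rows at that threshold were 3.43%, 6.38%, 21.7% and 23.9% in the same order. ERF, an ETS repressor that ERK exports from the nucleus, was the most abundant and had means of 29.8 and 29.2 FPKM without and with GLUP in WT and of 33.4 and 32.5 FPKM in TEAD4KO. ELF1, the next in level, lay higher with GLUP in every library of both genotypes (log2 differences 0.15 ± 0.07 and 0.25 ± 0.07, limma adjusted p = 0.999 and 0.389). ETS1, at a like level, had differences of 0.16 ± 0.10 and 0.27 ± 0.10, with overlapping libraries. Of the 13, only 1, ELF1, had every GLUP library above the untreated ones in both genotypes (0.998% of all rows). Another 1, ETS2, named after its values were seen, had them below in both.

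**Figure D4:**
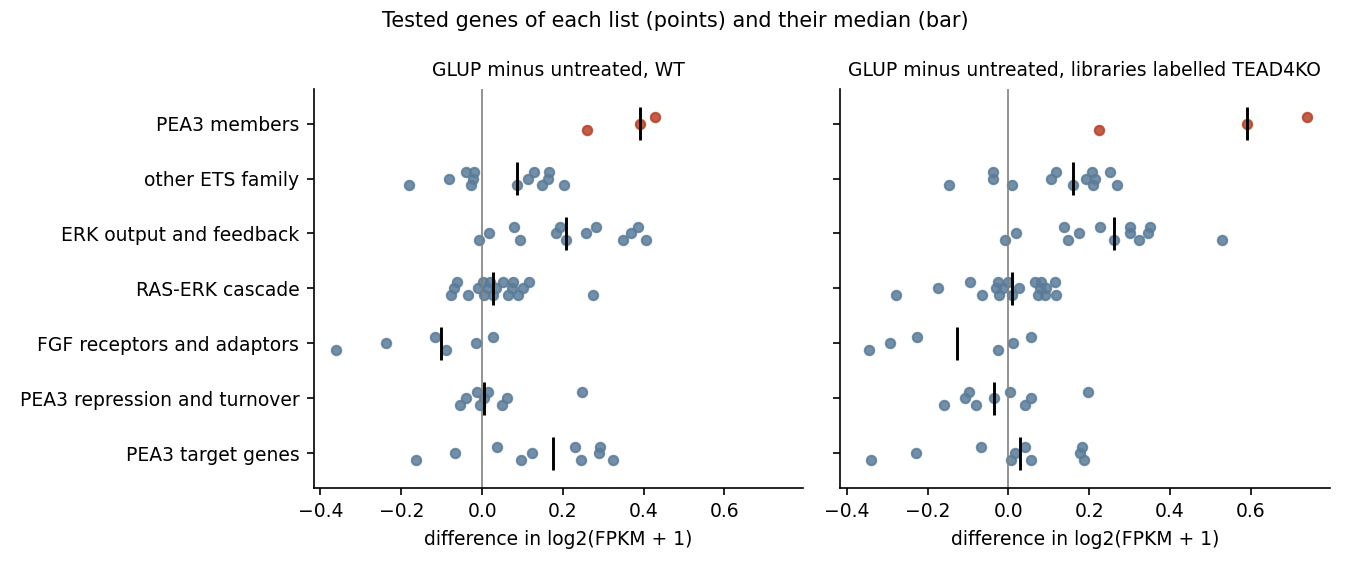
Differences in log2(FPKM + 1) between GLUP and untreated cells (x axis) in WT and in the libraries labelled TEAD4KO for each tested gene (points) of 7 lists (y axis), with black bars for list medians and the PEA3 members in red. The ERK output and feedback genes lie mostly to the right of 0 (medians 0.21 and 0.26), and the RAS-ERK cascade is centred near 0 (medians 0.03 and 0.01).

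Genes described as targets of PEA3 factors in other systems, such as matrix metalloproteinases and their activators, were mixed. Of 18 listed genes 10 were tested, since several metalloproteinases were close to 0. With GLUP, 8 of 10 had a positive difference in WT and 7 of 10 in TEAD4KO, beside 53.9% and 43.1% of all tested rows. The list medians were 0.18 and 0.03, and limma called none in either genotype. The WT median was 0.0384 without a filter, and with array weights 2 of 10 passed in WT. At an unadjusted p under 0.05 there were 4 higher in WT (3.43% of all rows), and 2 higher and 1 lower in TEAD4KO (6.38% of all rows). MMP2, a gelatinase, was the only tested target whose GLUP libraries lay above the untreated ones in both genotypes. It is named after its values were seen, and it had log2 differences of 0.32 ± 0.07 in WT and 0.18 ± 0.07 in TEAD4KO (limma adjusted p = 0.392 and 0.758, and 0.0106 in WT with array weights). CCND2, the cyclin D2 gene, was lower in TEAD4KO than in WT both untreated (log2 difference -0.31 ± 0.07, limma adjusted p = 0.0229) and with GLUP (-0.30 ± 0.07, limma adjusted p = 0.0237). These calls held in 18 and 17 of 23 alternatives (adjusted p from 0.00813 to 0.113 and from 0.00125 to 0.102). The former was lost without any of the 3 untreated WT libraries or TEAD4KO untreated replicate 2, and the latter without any of the 3 WT GLUP libraries or TEAD4KO GLUP replicate 14 or 15.

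Finally, rows were ranked by how closely they followed each member over the 12 libraries, as Pearson's r of log2(FPKM + 1). These coefficients describe libraries that share the same 4 groups, and they hold the difference with GLUP. ETV5 followed ETV1 (r = 0.862, and 0.516 after the group means were removed). ETV4 stood further off, with r = 0.581 to ETV1 (-0.02 within groups) and r = 0.416 to ETV5 (0.179 within groups). By r with ETV1, ETV5 ranked 15 and ETV4 ranked 381 among the other tested rows. By r with ETV5, ETV4 ranked 1491. The members were left out of the nearest rows given next. Nearest to ETV1 were ERRFI1, a feedback inhibitor of the EGF receptor (r = 0.931), RDH10, a retinol dehydrogenase (r = 0.916), and VGLL4, a cofactor that competes with YAP for TEAD factors (r = 0.914). Nearest to ETV5 were ARID5B, a DNA-binding chromatin factor (r = 0.945), PDGFRA, a receptor tyrosine kinase (r = 0.943), and ARHGAP29, a GTPase-activating protein (r = 0.928). Nearest to ETV4 were the immediate early gene IER2 (r = 0.892), STAMBPL1, a deubiquitinase (r = 0.875), and CDC42EP4, an effector of CDC42 (r = 0.868).

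The nearest rows of ETV1 had levels above its own. ERRFI1 had means of 15.3 and 20.4 FPKM without and with GLUP in WT and of 15.9 and 22.9 FPKM in TEAD4KO, and its GLUP libraries stood above the untreated ones in both genotypes. VGLL4 had means of 10.2 and 12.8 FPKM in WT and of 11.0 and 14.2 FPKM in TEAD4KO. IER2, the row nearest to ETV4, had means of 15.7 and 22.0 FPKM in WT and of 22.2 and 29.6 FPKM in TEAD4KO.

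PDGFRA also belongs to a list of 5 fibroblast markers, which all had means above 1 FPKM in this line and of which some were higher with GLUP. In WT 4 of these 5 lay higher in every GLUP library, beside 10.2% of all rows, and in TEAD4KO 1 of 5 did, beside 2.85%. Their summed level ran from 366 to 385 FPKM in untreated WT and from 379 to 419 FPKM in WT with GLUP, and from 335 to 426 FPKM and from 299 to 382 FPKM in TEAD4KO. The sums overlapped in both genotypes, and none of the 5 passed limma with GLUP. At an unadjusted p under 0.05 there were 2 higher in WT (3.43% of all rows) and 1 in TEAD4KO (6.38%). Epithelial markers summed to 10.4 to 11.3 FPKM untreated and 8.41 to 10.1 FPKM with GLUP in WT, and in TEAD4KO to 12 to 14.9 FPKM untreated and 10.1 to 12.5 FPKM with GLUP, with no overlap of the WT sums. Of 7 such markers 3 were tested and none passed, with 1 lower at an unadjusted p under 0.05 in each genotype. Markers of blood and endothelial cells summed to no more than 0.934 FPKM in any library. The part of these markers in the PEA3 values was not tested.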

How the data were processed

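RNA from 12 HGC-27 libraries was sequenced by the study, and the authors deposited 1 table of FPKM per gene, with Ensembl identifiers, made on a commercial cloud platform. The submitters' notes name HISAT2, Cufflinks, RSEM and hg19 without roles, and versions and annotation are not given in the sources used here. No whole-read steps were found in low values, the commonest ratio between libraries covering at most 1.685% of rows under 0.1 FPKM, so depth is unknown and no count test was run. Groups came from the labels, and 96.5% of the 20345 rows matched a symbol. The 11225 rows averaging 1 FPKM or more were fitted as log2(FPKM + 1) with limma 3.58.1 in R 4.3.3, as 4 groups with a mean-variance trend, two-sided, with Benjamini-Hochberg adjustment over all tested rows and calls at adjusted p under 0.05. The pseudocount lowers fold changes of low genes. The script was tested on simulated data.

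The members and the gene lists were chosen with earlier results of these data known. Named were the 3 members, TEAD4, up to 4 called genes per list and comparison, DUSP4, DUSP6, SPRY2, SPRY4, PHLDA1, CIC, COP1, the 3 most abundant other ETS genes and the 3 rows most like each member; any other is said to be named after its values were seen, or stands in a count of which it is part. GLUP libraries share the numbers 14 to 16 in their titles across genotypes, and their deviations from group means correlated at 0.106, 0.152 and 0.336. An alternative, the replicate block, took libraries of the same number as pairs, in the untreated groups as well. Promoter windows came from RefSeq. Alternatives were another pseudocount, other filters, scalings, variance models, a replicate block, a GC and length correction, the compared groups alone, a fold limit of 2 and the omission of each library.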

Additional observations from a re-analysis of the deposited data

How the results depend on the processing

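The log2 differences with GLUP of ETV1, ETV4 and ETV5 were positive under every alternative run, from 0.31 to 0.49, 0.13 to 0.35 and 0.38 to 0.46 in WT and from 0.66 to 0.84, 0.11 to 0.31 and 0.53 to 0.67 in TEAD4KO. ETV4 has no value under the filter of 5 FPKM. The call changed for 1 of the 3 in WT, ETV5, with array weights (0.42). The GC and length correction turned the sign of 2 near-zero genotype differences, ETV1 in untreated cells (0.00914) and ETV5 with GLUP (0.00787), with the same values when the replicate block was added. The ETV4 difference between genotypes in response to GLUP changed sign with quantile normalization (0.0258) and ran from -0.147 to 0.0939 over the fits that left out 1 library, positive without WT untreated replicate 3, WT GLUP replicate 14 or TEAD4KO GLUP replicate 16. The replicate block changed no member's direction. Near-zero differences of CIC, COP1 and ERF with GLUP also changed sign: CIC in WT with median-ratio scaling (-0.00738), quantile normalization (-0.0224) and array weights (-0.00872), ERF in WT with the GC and length correction (0.0121), and with 1 library left out CIC (-0.0154 to 0.0350 in WT and -0.206 to 0.0395 in TEAD4KO), COP1 in WT (-0.0516 to 0.0510) and ERF in TEAD4KO (-0.0817 to 0.0162).

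Counts of calls moved more. GLUP in WT gave 1 call, but 2 with quantile normalization, 0 without the trend, 61 with array weights, 2 with the GC and length correction, 0 with the fold limit, and 0 to 1 with 1 library left out (0 without any of the 6 WT libraries). GLUP in TEAD4KO gave 5, but 3 without the trend, 1 with array weights, 1 with the compared groups alone, 1 with the fold limit and 1 to 6 with 1 library left out (3 or fewer without any library other than TEAD4KO untreated replicate 3 and TEAD4KO GLUP replicate 14). TEAD4KO against WT gave 608 calls untreated, but 394 without a filter, 382 with the compared groups alone, 4 with the fold limit and 119 (without WT untreated replicate 3) to 1189 (without TEAD4KO untreated replicate 1) with 1 library left out, and it also moved over 1.5 times without WT untreated replicate 1 or 2, TEAD4KO untreated replicate 2 or TEAD4KO GLUP replicate 16. With GLUP it gave 656, but 2487 with array weights, 1064 with the replicate block, 6 with the fold limit and 201 (without WT GLUP replicate 16) to 1948 (without TEAD4KO GLUP replicate 16) with 1 library left out, and it moved as much without WT GLUP replicate 14 or 15, TEAD4KO untreated replicate 1 or TEAD4KO GLUP replicate 14 or 15. Deviations of the same-numbered untreated libraries correlated at 0.203 for number 2, against -0.0569 and -0.0149 for numbers 1 and 3. The replicate block paired these libraries as well, though only the numbers in their titles link them. The causes were not tested. FPKM without counts sets no limit on low values, and 3 libraries per group limit the precision of all.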
